A study of Homo sapiens with 6 samples.

Results

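The 7 genes NCL, RACK1, TCP1, HMGN1, FASN, SCML1 and IRS4 were short and held more intronic clusters in the F125A list than in the WT list. They were taken by symbol from the gene field of both lists, out of 11805 genes that some cluster names without a second gene. A cluster is a place covered by sequenced RNA that had stayed protected from nuclease in purified Rbfox1 complexes. The F125A list held 236 clusters of these genes out of 188027, and the WT list 147 out of 366429. The genes had been picked from the 10 with the highest ratio of F125A to WT clusters, so their counts and ratios are given as a description, with no test. The other 3 of the 10 were the ribosomal protein genes RPL4, RPL3 and RPS12.

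The complexes came from HEK293 Flp-In Rbfox2 KO#7 cells, a human embryonic kidney line in which Rbfox2 had been knocked out and which can take a transgene at a fixed site. There were 2 libraries from cells with FLAG-Rbfox1(F125A) and 3 from cells with FLAG-Rbfox1(WT), each group standing behind 1 deposited list. A control library from the same cells without a transgene was not analysed here. All groups carried the Rbfox2 knockout, and the label names a numbered line, so clonal differences from other HEK293 cells cannot be told apart from the knockout. The sources used here do not say which promoter drives the transgenes. The lists give places, not reads or scores, so read depth is unknown and replicates cannot be compared. The exact 95% intervals below cover counting error only.

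Rbfox1 is a splicing regulator whose RNA recognition motif binds the pentamer GCAUG in introns near alternative exons. F125A exchanges a phenylalanine of that domain for alanine. Rbfox proteins act within LASR, a large assembly of splicing proteins that includes several hnRNPs, and these partners bind RNA of their own. Introns of short, strongly transcribed genes also carry small nucleolar RNAs (snoRNAs), guides of ribosomal RNA modification that are cut out of the spliced intron and stay bound to protein.

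The members have different functions. NCL encodes nucleolin, an abundant nucleolar protein of ribosome production, and RACK1 a scaffold protein on the small ribosomal subunit. TCP1 is a subunit of the cytosolic chaperonin that folds actin and tubulin. HMGN1 binds nucleosomes, FASN makes fatty acids, SCML1 belongs to the Polycomb-related Scm family, and IRS4 is an insulin receptor substrate. Their annotated lengths lay between 6.77 kb (HMGN1) and 19.9 kb (FASN), and the 432 other genes in this range with 20 or more clusters over both lists serve below as genes of similar length. All but SCML1 lie on the minus strand.

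The promoters of RACK1, HMGN1, NCL and TCP1 are shown because their first F125A clusters began only 169 nt (TCP1) to 433 nt (RACK1) after the annotated start. They are the 100 bases before the start, from the RefSeq promoter table for GRCh38.p14, in which 5 members had a single entry. FASN, whose first F125A cluster began nearer the start, at 140 nt, was not among these 5 and is not shown. Both strands were searched for the GC box (GGGCGG), for the CCAAT box and for the pentamer GCATG, matches are in capitals, and none of those shown overlaps another.
RACK1, chr5:181243907-181244006, minus strand: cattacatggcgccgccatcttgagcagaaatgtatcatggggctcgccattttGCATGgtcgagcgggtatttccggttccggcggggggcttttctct
HMGN1, chr21:39349089-39349188, minus strand: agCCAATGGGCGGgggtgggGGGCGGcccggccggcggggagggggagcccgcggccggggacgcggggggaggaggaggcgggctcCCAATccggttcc
NCL, chr2:231464485-231464584, minus strand: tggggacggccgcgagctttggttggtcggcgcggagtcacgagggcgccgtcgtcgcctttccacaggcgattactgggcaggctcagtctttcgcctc
TCP1, chr6:159789603-159789702, minus strand: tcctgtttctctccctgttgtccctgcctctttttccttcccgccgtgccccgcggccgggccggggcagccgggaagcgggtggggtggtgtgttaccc
In the whole windows, from 250 bases before to 50 after the start, the GC box was found in 4 of the 5 members and in 56.3% of 22199 such windows of protein-coding genes. The CCAAT box was likewise found in 4 of the 5 and in 34.7% of all windows. The pentamer was found in RACK1 alone of the 5, upstream of its start, and in 26.9% of all windows. The sequence TATAAA was also searched for, and was found in 0 of the 5 and in 9.47% of all windows. A match is only a description of these letters.

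Each member had at least 1.52 F125A clusters for each WT cluster, whereas the whole lists held 0.51. NCL (chromosome 2, 231453531 to 231464484) had 17 F125A and 7 WT clusters, RACK1 (chromosome 5, 181236897 to 181243906) 16 and 9, and TCP1 (chromosome 6, 159778498 to 159789602) 14 and 9. HMGN1 (chromosome 21, 39342315 to 39349088) had 32 F125A and 21 WT clusters, and FASN (chromosome 17, 82078338 to 82098236) 27 and 17. The X-linked genes held the most, with 56 F125A and 36 WT clusters in SCML1 (17737128 to 17754985) and 74 and 48 in IRS4 (108719946 to 108736563). The ratio used to rank genes is the log2 of F125A clusters + 1 over WT clusters + 1, centred on the list totals. It was 2.13 for NCL, 1.73 for RACK1, 1.60 for FASN, 1.59 for SCML1, 1.58 for IRS4 and 1.55 for both HMGN1 and TCP1. Next below HMGN1 and TCP1 in the ranking came ABCA2 and P3H3, each with 15 F125A and 10 WT clusters.

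All 7 members lay 2-fold or more toward F125A, as they were chosen to. Across the 5626 genes with at least 20 clusters, 1.99% did, and 2.04% had more F125A than WT clusters. Among genes of similar length both shares were 9.72%, and their median ratio was 0.61. The 5626 genes were also put into 20 bins by gene length. Centred on the median of their own length bin, the members lay at 1.41 (NCL), 1.12 (FASN), 1.11 (SCML1), 1.10 (IRS4), 1.01 (RACK1) and 0.83 (HMGN1 and TCP1). The exact interval of the ratio centred on the list totals, taken without the added 1, was widest where clusters were few. It ran from 0.29 to 2.99 in TCP1 and from 0.90 to 3.75 in NCL, against 1.04 to 2.14 in IRS4. The intervals use the counts that chose the genes, so nothing is read from their lying above 0. They also treat clusters as independent although neighbours can touch, so they are too narrow.

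The genes reached these ratios from different levels. HMGN1, SCML1 and IRS4 were densely covered in both lists. HMGN1 had 4.72 F125A and 3.10 WT clusters per kb of gene, IRS4 4.45 and 2.89, and SCML1 3.14 and 2.02, where the median of genes of similar length was 0.87 in the F125A list and 1.12 in the WT list. In the F125A list none of the 432 genes was denser than HMGN1 or IRS4, and in the WT list 4 were denser than each. NCL, TCP1 and FASN were above that median with F125A and below it with WT, at 1.55 against 0.64 per kb in NCL, 1.26 against 0.81 in TCP1 and 1.36 against 0.85 in FASN. RACK1 was above it in both lists, with 2.28 F125A and 1.28 WT clusters per kb. These densities, and the covered shares below, are taken over the whole annotated gene with its exons, while the lists hold intronic clusters only. How far they depend on the share of intron in each gene was not tested. Every one of the 432 genes had more WT clusters than the 7 of NCL, with the limit that a gene needed 20 clusters in both lists together to be among them.

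**Figure D1:**
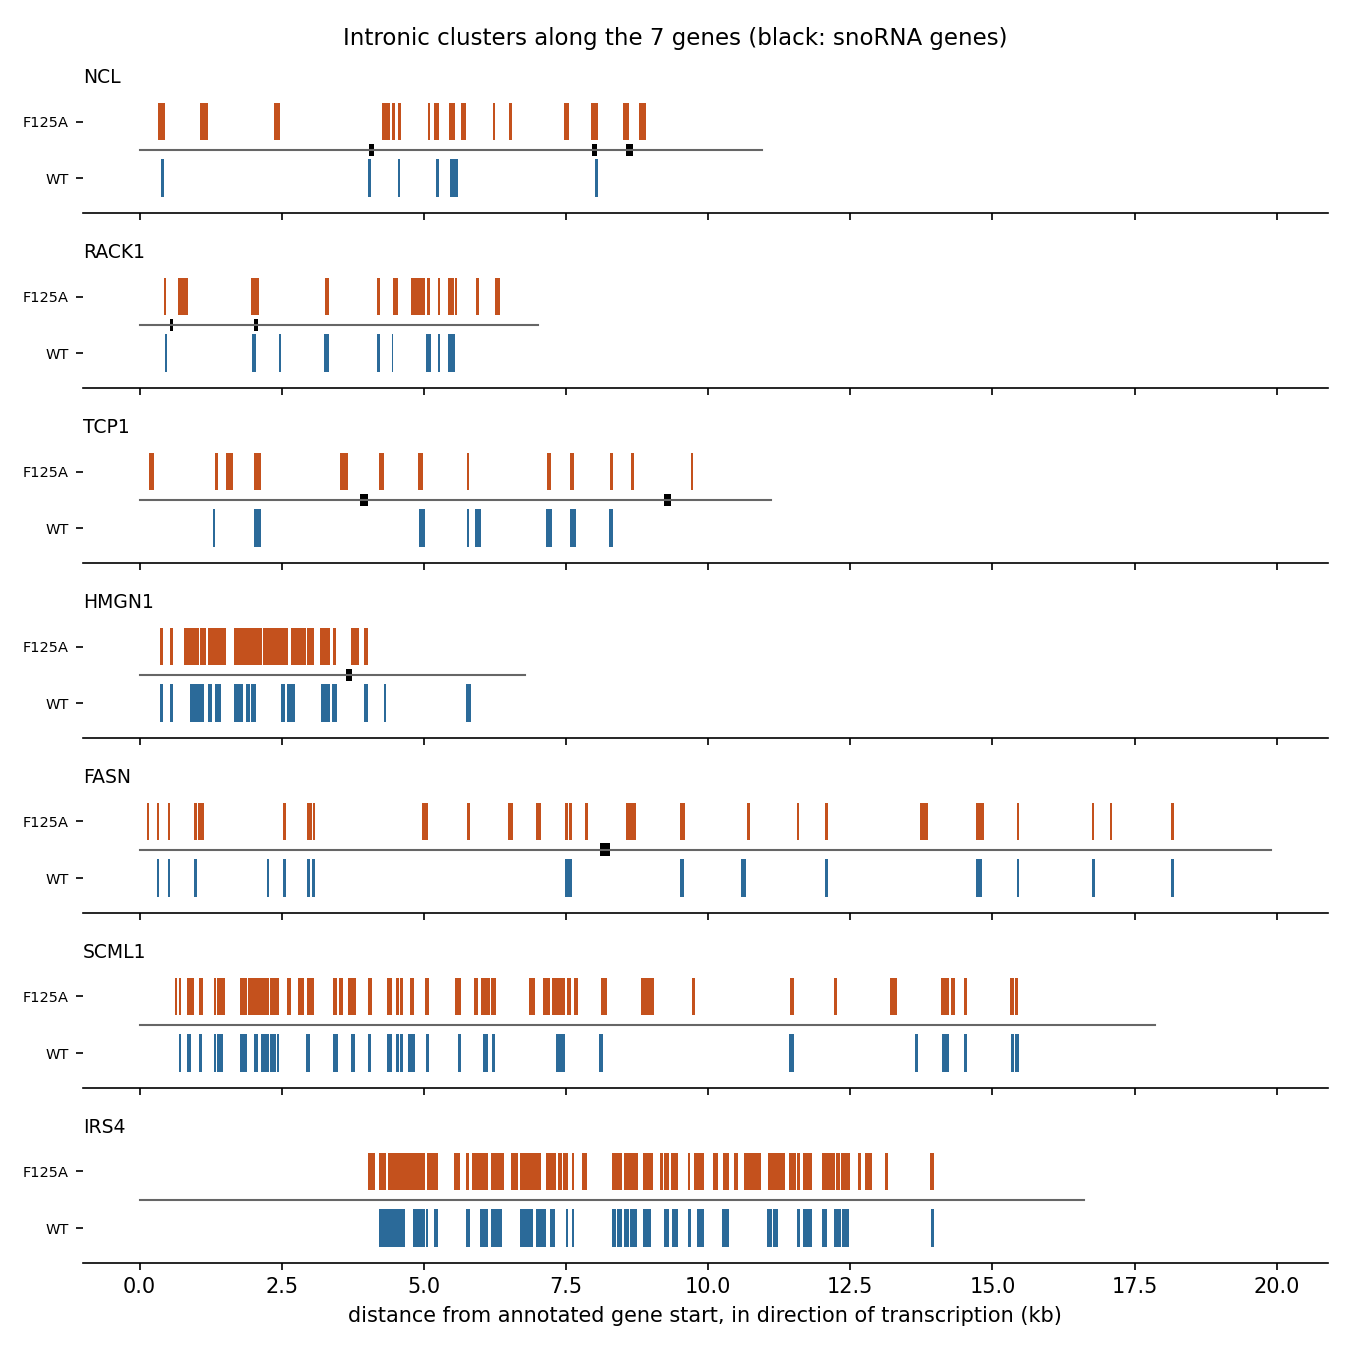
Place of every F125A cluster (orange, above the line) and WT cluster (blue, below the line) along the 7 genes, in kb from the annotated gene start, with snoRNA genes in black. HMGN1, SCML1 and IRS4 are densely filled, IRS4 is empty over its first 4.0 kb, and FASN has a stretch of 4385 nt without a WT cluster that holds 4 F125A clusters.

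The excess of F125A clusters lay mainly at places without any WT cluster. Over the 7 genes the lists differed by 89 clusters. Of these, 80 came from clusters without an overlapping partner in the other list (92 F125A and 12 WT) and 9 from overlapping ones (144 F125A and 135 WT), since a WT cluster could be met by several F125A clusters. A partner was counted from 1 nt on the same strand. The share of F125A clusters with a WT partner was 61.0% (exact interval 54.5 to 67.3%) in the members, 83.1% in genes of similar length and 86.2% in all 5626 genes. Of the WT clusters, 91.8% (86.2 to 95.7%) had an F125A partner in the members, 65.4% in genes of similar length, and 150889 of 335046 in all 5626 genes. A gene with more F125A than WT clusters must tend to such shares, and nothing further is read from them.

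The share of F125A clusters without a partner differed between members. It was 70.6% in NCL (12 of 17), 48.1% in FASN (13 of 27) and 42.9% in TCP1 (6 of 14), and in RACK1 8 of 16 had none. It was lower in the dense genes, at 39.3% in SCML1 (22 of 56), 31.2% in HMGN1 (10 of 32) and 28.4% in IRS4 (21 of 74). All 48 WT clusters of IRS4 overlapped an F125A cluster. The distance from an unpartnered F125A cluster to the nearest WT cluster of the gene had a median of 838 nt in TCP1, 471 nt in FASN, 453 nt in NCL and 157 nt in RACK1, against 100 nt in IRS4, 93 nt in SCML1 and 62.5 nt in HMGN1. In HMGN1 none lay farther than 118 nt from a WT cluster, whereas the farthest in FASN was 1887 nt away. The WT clusters themselves were spaced differently, with a median gap of 60 nt in HMGN1, against 550 nt in NCL, 631.5 nt in TCP1 and 814 nt in FASN. How far the distances reflect this spacing was not tested.

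Clusters often touched, that is, the end of one was the start of the next with a gap of 0 nt. In the members 94 of 236 F125A clusters touched a neighbour of the same list (39.8%, interval 33.5 to 46.4%), and 29 of 147 WT clusters did (19.7%, 13.6 to 27.1%). The intervals treat clusters as independent although touching is shared between neighbours, so they are too narrow. In genes of similar length 17.5% of F125A and 19.4% of WT clusters touched. The members were chosen by cluster number, which a stretch listed as several touching clusters raises, so nothing further is read from this comparison. The members' F125A share comes mainly from 3 genes. It was 68.8% in HMGN1 (22 of 32), 56.8% in IRS4 (42 of 74) and 39.3% in SCML1 (22 of 56), and between 7.41% and 14.3% in FASN, NCL, RACK1 and TCP1, which each had a single touching pair. In the WT list 17 of 48 clusters touched in IRS4 (35.4%), 2 of 9 in TCP1, 4 of 21 in HMGN1, 6 of 36 in SCML1, and 0 in NCL, RACK1 and FASN. Without IRS4 the members' shares were 32.1% with F125A and 12.1% with WT.

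By share of touching F125A clusters, 4 of the 432 genes of similar length lay above HMGN1, 15 above IRS4 and 47 above SCML1. These 3 genes were also the densest members, and how far density alone makes clusters touch was not tested. No clusters of the members overlapped within a list.

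**Figure D2:**
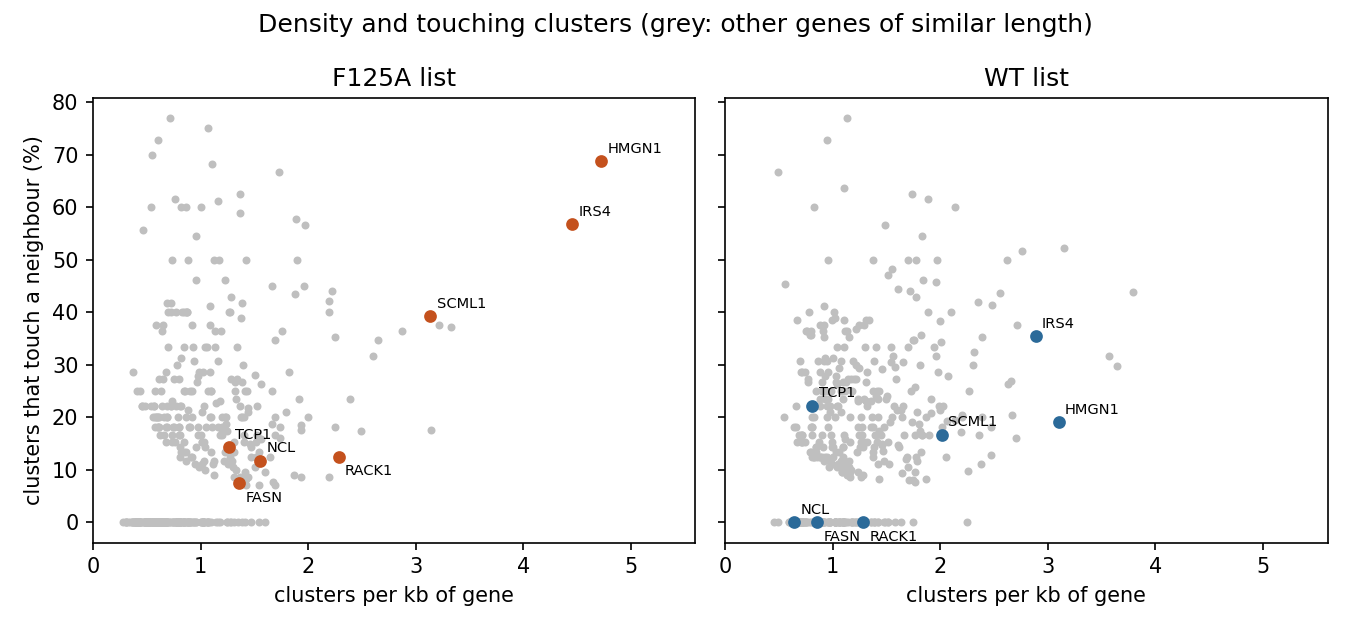
Share of clusters that touch a neighbour (%) against clusters per kb of gene, for the F125A list (left) and the WT list (right), each point a gene and grey points the 432 other genes of similar length. HMGN1 and IRS4 lie farthest to the right in the F125A list, at 68.8% and 56.8% touching. In the WT list they also lie far to the right, where 4 of the 432 genes are denser than each.

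The touching clusters formed runs. There were 37 runs of F125A clusters and 13 of WT clusters in the 7 genes. The longest lay in IRS4, where 8 F125A clusters covered 532 nt without a gap, from 4419 to 4950 nt after the annotated start. In the same place the WT list had a run of 5 clusters over 305 nt, from 4367 to 4671 nt, followed by single clusters at 4816 to 4910 nt and 4922 to 4949 nt. Some borders inside the runs nearly coincided: F125A clusters began at 4465, 4524 and 4583 nt, and WT clusters at 4473, 4528 and 4586 nt. Others did not: F125A clusters also began at 4681 and 4767 nt, where the WT list had no cluster between 4671 and 4816 nt. In HMGN1 there were 4 F125A runs of 4 clusters each, of 277 nt (from 776 nt), 295 nt (from 1658 nt), 439 nt (from 2166 nt) and 275 nt (from 2661 nt), and both WT runs had 2 clusters. SCML1 had 11 F125A runs and 3 WT runs, all of 2 clusters.

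Because a long covered stretch can be listed as several clusters, counts were also taken with neighbours merged. With touching clusters merged, the 236 F125A clusters became 179 and the 147 WT clusters 131. With all clusters closer than 50 nt merged, they became 124 and 97. In HMGN1 merging turned the count round, from 32 F125A and 21 WT clusters as listed to 17 and 19 with touching clusters merged and 8 and 12 with clusters under 50 nt apart merged. The centred log2 ratio of HMGN1 was then 0.80 and 0.39, still above 0 because the WT list is longer. In IRS4 the merged counts under 50 nt were 26 F125A and 24 WT (1.03), in SCML1 29 and 24 (1.18) and in RACK1 11 and 9 (1.18). NCL kept 14 F125A and 6 WT (2.02), TCP1 13 and 8 (1.56) and FASN 23 and 14 (1.60).

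**Figure D3:**
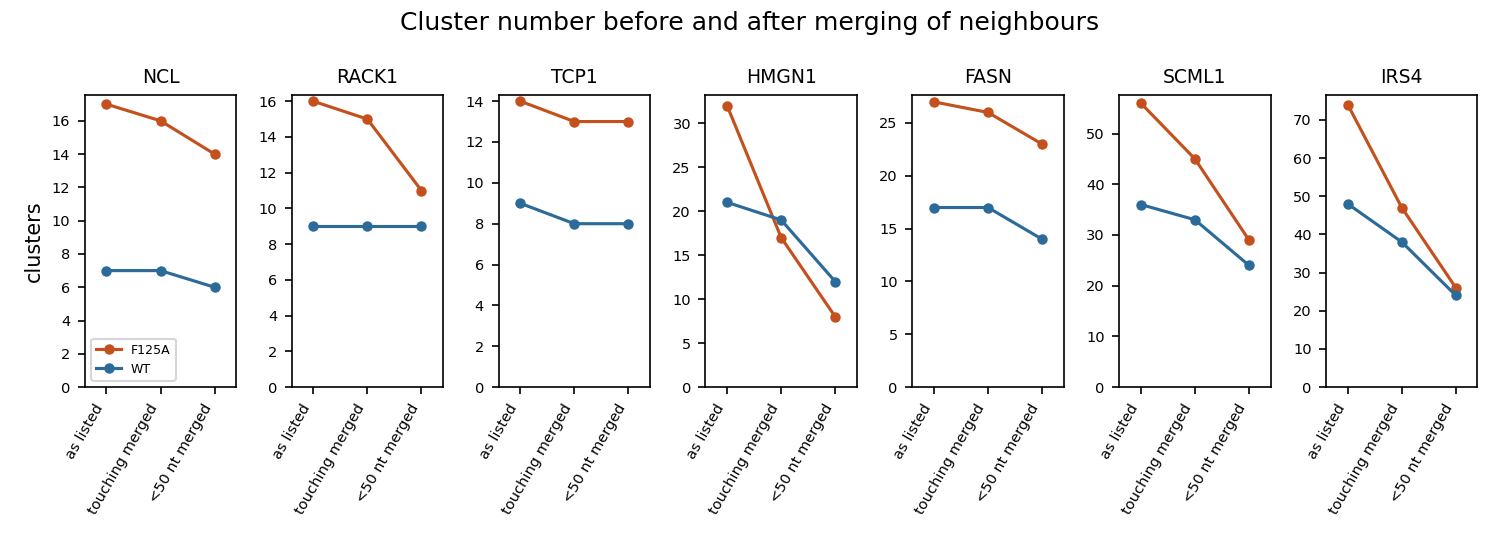
Number of F125A (orange) and WT (blue) clusters in each gene as listed, with touching clusters merged, and with clusters under 50 nt apart merged. The lines cross in HMGN1, nearly meet in IRS4 at 26 and 24, and stay apart in NCL, TCP1 and FASN.

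Covered length does not depend on how a stretch is divided. F125A clusters covered 17804 nt of the 7 genes and WT clusters 9801 nt. They covered 37.7% of HMGN1 with F125A against 21.4% with WT, 34.3% against 21.1% of IRS4 and 23.3% against 13.1% of SCML1. RACK1 was covered to 17.4% with F125A and 8.05% with WT, and NCL to 13.3% and 3.51%. As a share of the gene, TCP1 and FASN were covered least with F125A. In nt, the covered length was 999 nt with F125A and 703 nt with WT in TCP1, and 1722 nt and 848 nt in FASN. The median of genes of similar length was 6.04% in the F125A list and 7.23% in the WT list. By covered length relative to the list totals, the log2 ratio was 2.79 in NCL, 1.98 in RACK1, 1.89 in FASN, 1.70 in SCML1, 1.69 in HMGN1, 1.57 in IRS4 and 1.37 in TCP1. HMGN1 thus had more covered length with F125A, in fewer merged stretches.

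Cluster length differed between lists most in NCL. The median there was 95 nt in the F125A list (quartiles 61 and 103 nt) and 49 nt in the WT list (48 and 52.5 nt), and only 3 of the 432 genes had a larger F125A median. In RACK1 the medians were 80 and 57 nt, in IRS4 77.5 and 70 nt, and in SCML1 66 and 59 nt. They were close together in HMGN1 (71.5 nt with F125A and 71 nt with WT) and FASN (48 and 49 nt), and lower with F125A in TCP1 (63.5 and 69 nt). Over all members the median was 70 nt in the F125A list and 60 nt in the WT list, beside 64 and 59 nt in genes of similar length. The longest clusters were a WT cluster of 178 nt in IRS4 (6971 to 7148 nt) and an F125A cluster of 174 nt in FASN (8559 to 8732 nt), which had no WT partner.

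Over all members together, F125A clusters without a partner were the longer ones, and WT clusters without a partner the shorter. The F125A medians were 78 nt without and 65 nt with a partner, and the WT medians 42.5 nt (12 clusters) and 63 nt. Genes of similar length showed the same order with smaller gaps, at 69 and 63 nt for F125A and 56 and 61 nt for WT. In HMGN1 the unpartnered F125A clusters had a median of 103 nt, against 60.5 nt for those with a partner. In NCL the order was the other way, with 88.5 nt without and 95 nt with a partner. In SCML1 the F125A medians were nearly the same, at 67 and 66 nt. The WT order was reversed in TCP1, where the 1 WT cluster without a partner had 110 nt and the median with a partner was 67 nt.

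**Figure D4:**
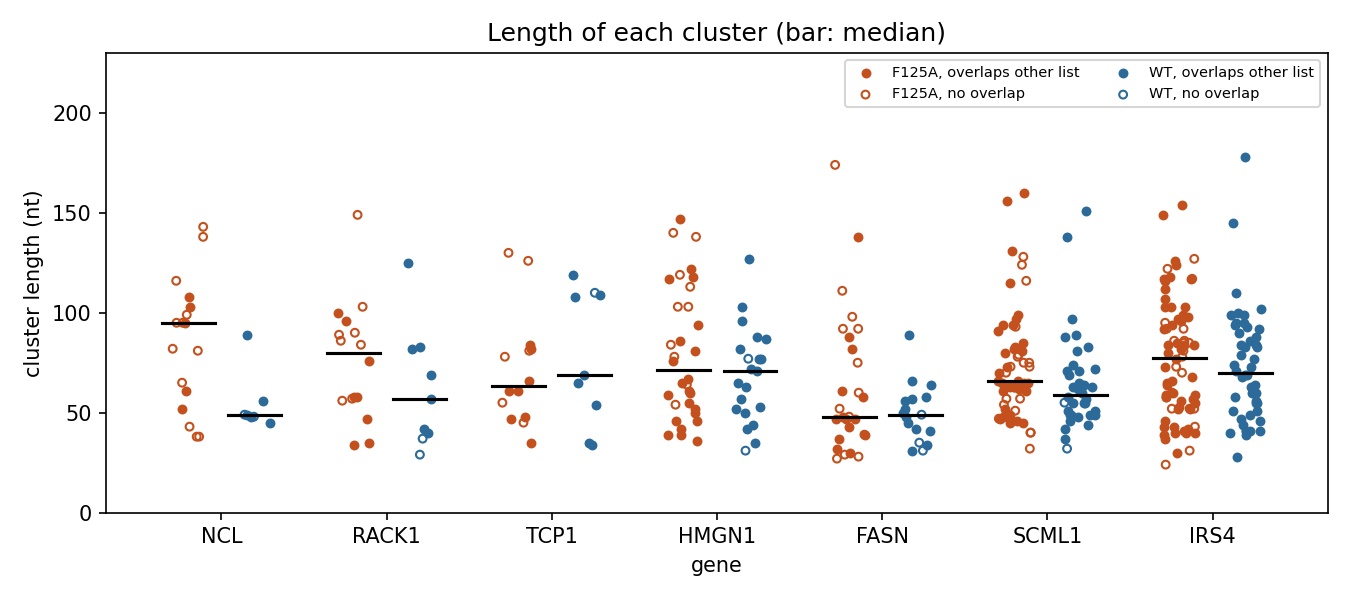
Length in nt of each F125A (orange) and WT (blue) cluster by gene, filled where it overlaps a cluster of the other list and open where not, with the median as a bar. In NCL the F125A median of 95 nt stands above every WT cluster of the gene, the longest of which has 89 nt.

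Where a single F125A cluster met a single WT cluster, their borders were often close. There were 92 such pairs. The upstream ends lay within 5 nt of each other in 50 pairs (54.3%) and the downstream ends in 51 (55.4%), and in genes of similar length, with 3797 pairs, in 56.0% and 58.9%. In 3 pairs both ends were the same, a cluster of 52 nt in HMGN1 (1658 to 1709 nt), 1 of 58 nt in FASN (7475 to 7532 nt) and 1 of 63 nt in SCML1 (4503 to 4565 nt). The F125A cluster was the longer in 51 pairs and the WT cluster in 37, and the median difference was 1 nt. All 5 pairs of NCL had the longer F125A cluster, by 7 to 60 nt. In TCP1 the WT cluster was the longer in 4 of 6 pairs, by up to 58 nt.

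Positions along the gene differed between members. In NCL the F125A clusters began 333 nt after the annotated start and ended at 8900 nt, and 8 of 17 lay in the third of 5 equal parts of the gene, as did 4 of 7 WT clusters. Its F125A list held clusters at 1067 to 1209 nt and 2372 to 2466 nt, within 3594 nt that had no WT cluster. RACK1 had 7 of 16 F125A and 4 of 9 WT clusters in the fourth of 5 parts, among them a touching F125A pair of 252 nt from 4776 to 5027 nt with no WT partner. In TCP1 the F125A clusters ran from 169 to 9737 nt and the WT clusters from 1301 to 8332 nt, so that the outermost on either side were F125A clusters.

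HMGN1 clusters were confined to the upstream part of the gene in the F125A list: all 32 lay within the first 4013 nt of 6774 nt. The WT list had 2 clusters farther downstream, at 4301 to 4331 nt and 5749 to 5825 nt. From 776 to 2935 nt the F125A clusters followed each other closely, with several gaps. The widest gap there lay between clusters ending at 1528 nt and beginning at 1658 nt. Along the whole gene the longest space between neighbouring F125A clusters was 261 nt, against 1417 nt in the WT list. In FASN 8 of 27 F125A and 7 of 17 WT clusters lay in the first of 5 parts. Between 3090 and 7474 nt FASN had no WT cluster, and F125A clusters of 92, 60, 75 and 98 nt lay there.

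SCML1 clusters were most frequent near the start, with 23 of 56 F125A and 17 of 36 WT clusters in the first of 5 parts and 4 and 3 in the last. The longest space was 1680 nt in the F125A list and 3274 nt in the WT list, ending at 11443 and 11428 nt. IRS4 had no cluster in the first of 5 parts in either list: the first F125A cluster began at 4020 nt and the first WT cluster at 4219 nt. From there clusters followed each other closely, with a median gap of 7 nt between F125A and 35 nt between WT neighbours, up to 13971 and 13975 nt. The places of exons were not used here, so an empty stretch may be exonic.

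Of the 7 genes, 5 contain snoRNA genes, 9 in all. Among genes of similar length 28 of 432 do (6.48%). The snoRNA genes' strand is not in the annotation table, so overlap was taken by place alone. In NCL, SNORD20 (7962 to 8041 nt after the start) was covered over all of its 80 nt by 2 touching F125A clusters, from 7935 to 8015 and 8016 to 8067 nt. The WT list had a single cluster there, from 8016 to 8060 nt, with 26 nt of SNORD20. SNORA75 of NCL shared 56 of 137 nt with an F125A cluster and lay 488 nt from the nearest WT cluster. SNORD82 showed the opposite, with 26 of 75 nt in a WT cluster and 155 nt to the nearest F125A cluster. In RACK1, SNORD96A shared 70 of 72 nt with 2 F125A clusters and 29 nt with a WT cluster, while SNORD95 was met by neither list. In HMGN1 a predicted snoRNA gene, LOC124905074, shared 17 of 107 nt with an F125A cluster and none with WT.

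SNORA20 and SNORA29 of TCP1 and SNORD134 of FASN had no cluster in either list, and their nearest F125A cluster was 204 to 339 nt away. In all, 4 of the 9 snoRNA genes met an F125A cluster (exact interval 13.7 to 78.8%) and 3 a WT cluster (7.5 to 70.1%). In the 28 other hosts of similar length 7 of 40 snoRNA genes met an F125A cluster (17.5%, interval 7.34 to 32.8%) and 6 a WT cluster (5.71 to 29.8%), intervals that overlap those of the members. The 28 other hosts had a median log2 ratio of 0.73, with 5 at 2-fold or more toward F125A. The 404 genes of similar length without a snoRNA gene had a median of 0.61, with 37 at 2-fold or more. The hosts were also shorter (median 12.6 kb, against 14.9 kb for all 432 genes), and centred on length bins the medians were 0.12 and -0.03. No part of the excess was tested against the presence of a snoRNA gene. No microRNA hairpin of the RefSeq table lies in any of the 7 genes.

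Functional relatives of the members mostly had fewer F125A than WT clusters, and so did most genes. Only 2.04% of the 5626 genes, and 9.72% of those of similar length, had more F125A than WT clusters. At 2-fold or more toward F125A lay 1.99% and 9.72%. The counts below were not tested against these shares. Of the 7 other chaperonin subunits none had more F125A than WT clusters, although all lay above 0 after centring, with a median log2 ratio of 0.63. CCT4 had 24 F125A and 32 WT clusters (0.56), CCT3 21 and 28 (0.56), CCT2 18 and 23 (0.63), and CCT5 13 and 20 (0.38), while the other 3, CCT6A, CCT7 and CCT8, named after their values were seen, had as many in each list. For other nucleolar proteins the median was 0.85 over 9 genes with at least 20 clusters, and 2 of them leaned 2-fold or more to F125A and are named for that value: FBL, the rRNA methyltransferase fibrillarin (23 and 21, 1.09), and NOP56 of the same particle (16 and 14, 1.14). NPM1 had 54 F125A and 71 WT clusters (0.57), NOP58 48 and 49 (0.93), POLR1A 17 and 36 (-0.08) and POLR1B 17 and 33 (0.05). Of 6 translation genes with enough clusters, EEF2 (13 and 10, 1.31) and EIF4A2 (14 and 13, 1.06) leaned 2-fold or more to F125A and are likewise named for their values. PABPC1 had 22 and 26 (0.73), EEF1G 18 and 25 (0.51), NACA 13 and 24 (0.13) and BTF3 12 and 19 (0.34).

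The relatives of HMGN1, FASN, SCML1 and IRS4 lay lower by the ratio centred on list totals, and many of them are far longer genes. Centred on length bins, the medians were 0.06 (fatty acid and sterol synthesis), 0.07 (SCM and MBT domains) and 0.11 (insulin signalling). Those of the lists above were 0.24 (chaperonin), 0.14 (nucleolar) and 0.02 (translation), so that order did not hold throughout. HMGN3 had 10 F125A and 24 WT clusters (-0.22) and HMGA1 12 and 12 (0.96). HMGB1 (7 and 8) and HMGN2 (6 and 5) had too few for a ratio. Among 11 other genes of fatty acid and sterol synthesis the median was 0.28, with ACACA, which supplies the substrate of FASN, at 114 and 265 (-0.25), SREBF2 at 60 and 97 (0.28), ACLY at 48 and 66 (0.51) and HMGCS1 at 43 and 43 (0.96). Among 10 other genes with SCM or MBT domains or of the Polycomb partners of such proteins the median was 0.11, with SCMH1 at 149 and 238 (0.29), SFMBT2 at 79 and 207 (-0.42), PHC3 at 42 and 80 (0.05) and SCML2, a relative of SCML1 on the same chromosome, at 35 and 71 (-0.04). Among 8 other genes of insulin signalling the median was 0.01, with IGF1R at 191 and 372 (0.00), AKT2 at 105 and 126 (0.70), AKT1 at 49 and 54 (0.83) and INSR, the insulin receptor, at 33 and 66 (-0.02). None of the genes in these 4 lists with at least 20 clusters, other than the members, lay 2-fold or more toward F125A. Across all 5626 genes 1.99% did, so in lists this short none is near that share, and nothing further is read from it. The median of all 5626 genes was 0.04.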

How the data were processed

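Per the labels, nuclease-protected RNA from FLAG-Rbfox1 complexes was sequenced from 2 F125A, 3 WT and 1 control library, with 4-nt molecular identifiers for removing PCR duplicates. The submitters' processing notes name cutadapt, STAR and hg38. How clusters were called, whether the control entered the calls and how libraries were combined is not stated in the sources used here. The authors deposited 1 list per Rbfox1 group with coordinates only, and no sample column was left unused. Starts were read as 0-based, since neighbouring clusters touched 9725 times in the F125A list and overlapped 2 times. Repeated rows (4851 F125A, 7029 WT) were dropped, and none belonged to a member.

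Gene bounds came from RefSeq GRCh38.p14, and distances count from 1 at the annotated start. The centred log2 ratio used genes with at least 20 clusters, and centring on length bins took the median of each of 20 bins of these genes. Python 3.11.15, pandas 2.3.3 and scipy 1.17.1 were used, and the functions were tested on simulated data. No test of conditions was made. The members and lists were chosen with earlier results of these data known, and in each list up to 4 genes with most clusters are named, with the exceptions marked as named for their values. One gene of the lists is left out and not reported here. Alternatives covered merging, the added count, centring, covered length, and the overlap and gap rules.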

Additional observations from a re-analysis of the deposited data

How the results depend on the processing

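No ratio of a member changed sign under any of the 6 alternatives. The median log2 ratio of the 7 genes was 1.59 as reported, 1.54 with 5 added in place of 1, 1.54 with touching clusters merged, 1.18 with clusters closer than 50 nt merged and 1.10 centred on length bins. The share of F125A clusters with a WT partner was 53.8% where most of the cluster (at least 0.5 of it) had to be covered and 73.7% within 50 nt. With gaps of up to 5 nt, 48.7% of F125A and 34.0% of WT clusters had a neighbour, and with gaps under 50 nt 65.7% and 52.4%. Without IRS4, a choice made after seeing the data, 32.1% of F125A and 12.1% of WT clusters touched a neighbour. With touching clusters merged, the median length was 82 nt with F125A and 69 nt with WT, and the WT median was 42.5 nt for clusters without a partner. The cause of these changes was not tested. No replicate could be left out, because a list joins all libraries of a group. No paired analysis was possible because the lists carry no replicate. With 14 to 74 clusters in the F125A list and 7 to 48 in the WT list per gene, counting alone leaves wide intervals, and unknown read depth adds to them.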
